A study of Mus musculus with 63 samples.

Results

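The 7 genes described here had been singled out for how steadily they differed between the paired clones of single tumours: Elapor1, Baiap2l2, Mgat5, Mapre2, Selenom, Nenf and Vwa5b2, 7 of 24766 genes measured. Their rows were taken by symbol, and the values that chose them are the differences between the major and the minor clone of each tumour, so those differences are given below as a description with no test. The description "most consistent" held in part. Among 16428 genes with a mean normalised count of at least 10 over the clones, 11 moved one way in at least 19 of 20 tumours, and of the 7 genes Elapor1 alone was among those 11. Hpd, a tyrosine catabolism enzyme, moved one way in 20 tumours. Ranked by the size of the mean difference against its spread over tumours, Nenf, Baiap2l2, Mapre2, Mgat5, Elapor1 and Selenom stood at places 6, 7, 8, 9, 13 and 15, and Vwa5b2 at place 230.

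The RNA came from small intestinal tumours of 2 mice, 1 female and 1 male, that carried 1 floxed copy of Apc (Apchet), an inducible Cre driven by the Villin promoter of gut epithelium and the Confetti multicolour reporter on a C57BL/6 background. All groups shared the same treatment, 4 mg of tamoxifen at an age of at least 8 weeks and 200 mg/kg of the mutagen ENU 10 days later. Tumours that held differently coloured clones had been cut apart under a fluorescence microscope, which gave 20 major (larger) and 20 minor (smaller) clones, 10 pairs from each mouse, and 23 further tumours (10 of the female mouse and 13 of the male mouse) had no clone letter and are called undivided. The series description counts 20 monoclonal tumours, and which of the 23 these are is not given in the labels. Which clone was major was read from the source data of the study. Tumours are named F or M, for the female or the male mouse, with their number. The segments of the small intestine are called SI10, SI20 and SI30 in the labels. The clones of tumour F22 were labelled with different segments, SI20 for the major and SI10 for the minor clone. Since there was 1 mouse of each sex, a difference between the mice cannot be told apart from one between the sexes, and p-values over tumours measure the spread between tumours of these mice.

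The values are normalised counts per gene, and differences are on the log2(normalised count + 1) scale. Library sums ran from 26100000 to 45900000. Rn18s, the 18S ribosomal RNA gene, took 0.555% to 19.3% of a library, with a median of 1.24% in major, 6.19% in minor and 3.11% in undivided libraries. Its clone gap, major minus minor, averaged -1.46 (SD 1.55, n = 20 tumours). A list of 7 epithelial genes was expressed in each library, with a summed normalised count of 155536 to 613768, and its clone gap averaged 0.13 (SD 0.30). In pieces of tumour, fewer cells of a type and less RNA per cell cannot be told apart.

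The 7 genes act in separate parts of the cell. Elapor1 encodes a membrane protein of endosomes and lysosomes linked to autophagy. Baiap2l2 encodes an I-BAR protein that shapes the plasma membrane at cell contacts of intestinal and kidney epithelium. Mgat5 encodes the Golgi enzyme that starts the β1,6 branch of N-glycans on glycoproteins. Mapre2 encodes EB2, a protein of growing microtubule ends and a relative of EB1, which binds the APC protein. Selenom encodes a selenoprotein of the endoplasmic reticulum with a thioredoxin-like fold. Nenf encodes neudesin, a secreted protein with a heme-binding domain of the cytochrome b5 kind. Vwa5b2 encodes a little-studied protein with a von Willebrand factor A domain. The intestinal secretory lineage, against which the genes were compared, is set by the transcription factor ATOH1, which directs crypt cells away from the absorptive fate. SPDEF then acts in goblet and Paneth cells, and MUC2, chromogranin A (Chga) and lysozyme (Lyz1) mark goblet, enteroendocrine and Paneth cells.

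In the GRCm39 genome, the 250 bases before the start of the canonical transcript (Gencode M39) of Elapor1, Baiap2l2, Mgat5, Selenom and Vwa5b2 were searched on both strands for the E boxes CAGCTG and CAGATG (the kind bound by ATOH1), the E box CACGTG, the TCF motif CTTTGAT and the CREB and ATF motif TGACGT. Elapor1 held CAGATG, which 12.1% of 16903 promoters of that length hold, and no other match was found in the 5 windows. CAGCTG was in 11.8%, CACGTG in 7.11%, CTTTGAT in 2.65% and TGACGT in 7.26% of those promoters. The sequences are shown for Elapor1 and Selenom, whose levels followed Atoh1 most closely in undivided tumours (below), in capitals where a motif matched.
Elapor1, chr3:108443963-108444212, minus strand: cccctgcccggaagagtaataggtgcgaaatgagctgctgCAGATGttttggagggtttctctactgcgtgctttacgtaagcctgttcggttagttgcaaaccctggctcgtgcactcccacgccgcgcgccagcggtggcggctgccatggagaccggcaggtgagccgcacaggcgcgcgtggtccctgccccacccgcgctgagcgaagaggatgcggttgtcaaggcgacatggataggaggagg
Selenom, chr11:3464617-3464866, plus strand: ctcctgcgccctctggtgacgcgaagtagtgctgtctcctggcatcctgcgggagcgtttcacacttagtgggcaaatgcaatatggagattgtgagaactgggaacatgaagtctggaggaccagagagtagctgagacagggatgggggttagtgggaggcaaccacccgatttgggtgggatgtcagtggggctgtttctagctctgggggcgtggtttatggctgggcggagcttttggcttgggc
The match in Elapor1 starts 210 bases before the start. The window of Selenom lies partly within the span of the gene, since other transcripts start before the canonical one. A match describes the letters only.

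The genes lie on 6 chromosomes of GRCm39 (Gencode M39). Mgat5 (ENSMUSG00000036155) spans chr1:127132752-127416073 on the plus strand and Nenf (ENSMUSG00000037499) chr1:191038375-191050552 on the minus strand. Elapor1 (ENSMUSG00000040412) spans chr3:108362997-108443962 on the minus strand and Selenom (ENSMUSG00000075702) chr11:3464684-3467551 on the plus strand. Baiap2l2 (ENSMUSG00000018126) spans chr15:79142383-79169737 on the minus strand, Vwa5b2 (ENSMUSG00000046613) chr16:20408173-20424131 on the plus strand, and Mapre2 (ENSMUSG00000024277) chr18:23885390-24026918 on the plus strand. Selenom overlaps Smtn, and Vwa5b2 overlaps Alg3, each on the other strand. The library kit keeps strand, and whether the quantification used it is not given in the sources used here. Smtn (smoothelin, a protein of smooth muscle) had a median normalised count of 355 and was itself higher in the major clone in 18 of 20 tumours, by a mean of 0.44. Alg3, with a median of 558, was higher in 13 of 20, by 0.05.

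Elapor1, Baiap2l2, Mgat5, Mapre2, Selenom and Vwa5b2 were higher and Nenf was lower in the major clones. Elapor1 had a normalised count of 279 to 1964 (median 711) in major clones, 218 to 1244 (median 428) in minor clones and 149 to 1937 (median 441) in undivided tumours. The 3 ranges overlapped widely, and the clones were compared within pairs. Its gap was 0.71 ± 0.60 (mean ± SD, n = 20 tumours), a 1.63-fold difference, and it was above 0 in 19 tumours. Tumour F27 was the exception, with 1041 in the major and 1244 in the minor clone. In M31 both clones stood at 559, which counted as higher by less than 0.01, and in M23 they stood at 279 and 272. The widest gap, 1.81, was that of F22, whose clones carried different segment labels, and without F22 the mean was 0.65.

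**Figure D1:**
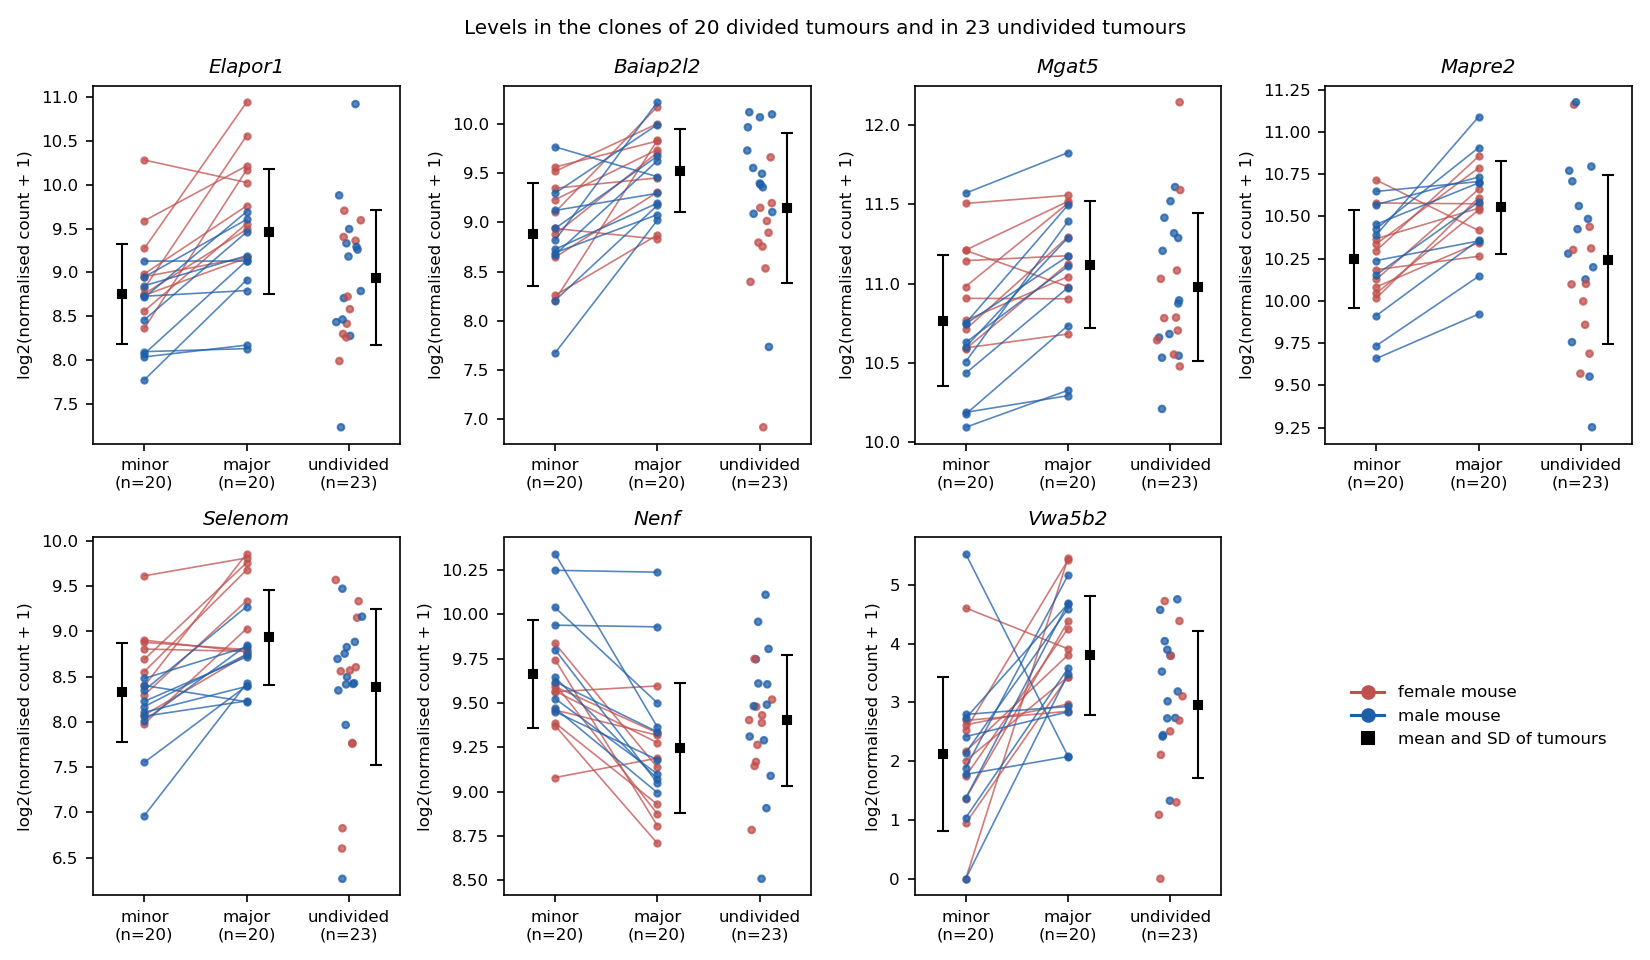
Normalised counts of the 7 genes on the log2(count + 1) scale (vertical axes) in 20 minor clones, 20 major clones and 23 undivided tumours. Lines join the clones of 1 tumour, colours give the mouse, and black squares with bars give the mean and SD over tumours. Most lines rise from minor to major except for Nenf, where 18 of 20 fall, and undivided tumours spread across both clone groups.

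Baiap2l2, the membrane-shaping protein, ranged from 454 to 1190 (median 746) in major and from 203 to 869 (median 479) in minor clones. Its gap was 0.64 ± 0.50 (SD, n = 20), 1.56-fold, and above 0 in 18 tumours. It was lower in the major clone in F19 (454 against 489.6) and in M31 (705 against 869). As for Elapor1, F22 had the widest gap, 909.5 against 295. Selenom, of the endoplasmic reticulum, ranged from 298 to 927 (median 441) in major and from 124 to 783 (median 319) in minor clones. Its gap was nearly as wide, 0.61 ± 0.52 (SD, n = 20), but was above 0 in 16 tumours, a share that 6.37% of the 16428 genes reached or passed in one direction. Selenom was the gene among the 7 with the most exceptions, F19, F20, F24 and M27, and none of these gaps was below -0.18.

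Mgat5 and Mapre2 were the most abundant of the 7 by count and had the smallest gaps. Mgat5 ranged from 1254 to 3630 (median 2271) in major and from 1092 to 3040 (median 1696) in minor clones. The gap of Mgat5 was 0.35 ± 0.29 (SD, n = 20), or 1.28-fold, and it was higher in the major clone in 10 of 10 tumours of the male mouse and 8 of 10 of the female mouse. The mean was 0.49 in the male and 0.22 in the female mouse, a difference that was not tested. Mapre2 ranged from 969 to 2179 (median 1530) in major and from 808 to 1680 (median 1233) in minor clones. Its gap of 0.31 ± 0.24 (SD, n = 20), 1.24-fold, was above 0 in 18 tumours, with F24 (1524 against 1530) and F27 (1367 against 1680) as exceptions.

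Nenf was the only one of the 7 that was higher in minor clones. It ranged from 418 to 1207 (median 581) in major and from 540.3 to 1297 (median 775) in minor clones. Its gap was -0.42 ± 0.32 (SD, n = 20), 1.34-fold higher in the minor clone, and below 0 in 18 tumours. In M19, M23 and F19 the clones were within 0.05 of each other, and in F27 Nenf was higher in the major clone, 583 against 540.3. The widest gap was that of M22, 659 against 1297.

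Vwa5b2 was measured at few counts. It ranged from 3.22 to 42.6 (median 11.9) in major clones and from 0 to 45.1 (median 3.22) in minor clones, and it reached a mean of at least 10 over the clones only through the major group (16.5 against 6.11). The minor clone was listed at 0 in 2 tumours, F22 and M19. Its gap of 1.68 ± 1.93 (SD, n = 20) was above 0 in 18 tumours. Tumour M20 went the other way, with 3.24 in the major and 45.1 in the minor clone, and so did F23, with 14.0 and 23.3. Without M20 the mean gap was 1.95, without F22, which had the widest gap (42.6 against 0) and different segment labels, it was 1.48, and with a pseudocount of 0.1 or 5 in place of 1 it was 2.23 or 1.04.

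Across the 7 genes, 11 of 20 tumours showed all of these directions, 5 tumours showed 6 of them, 2 showed 5, and 2, F19 and F27, showed 4. Tests of this contrast called 188 of 16428 genes (1.14%, limma with tumour as a block, adjusted p under 0.05), 110 higher and 78 lower in major clones (133 higher and 213 lower under quantile normalization). All 7 genes were among them, which follows from how they were chosen and supports nothing. The Rn18s gap was also negative in 15 of 20 tumours. In the 8 tumours whose Rn18s gap was under 1 in size, a subset chosen after seeing the data, the mean gaps were 0.67 for Elapor1, 0.72 for Baiap2l2, 0.23 for Mgat5, 0.23 for Mapre2, 0.50 for Selenom, -0.30 for Nenf and 2.35 for Vwa5b2. With the Rn18s gap as a covariate, a fit also chosen after seeing the data, the gaps at no Rn18s difference were 0.78 (SE 0.19) for Elapor1, 0.66 (0.16) for Baiap2l2, 0.26 (0.09) for Mgat5, 0.25 (0.08) for Mapre2, 0.51 (0.16) for Selenom, -0.30 (0.09) for Nenf and 2.22 (0.59) for Vwa5b2. These are values of the gaps that chose the genes, and the part of Rn18s in them was not tested.

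**Figure D2:**
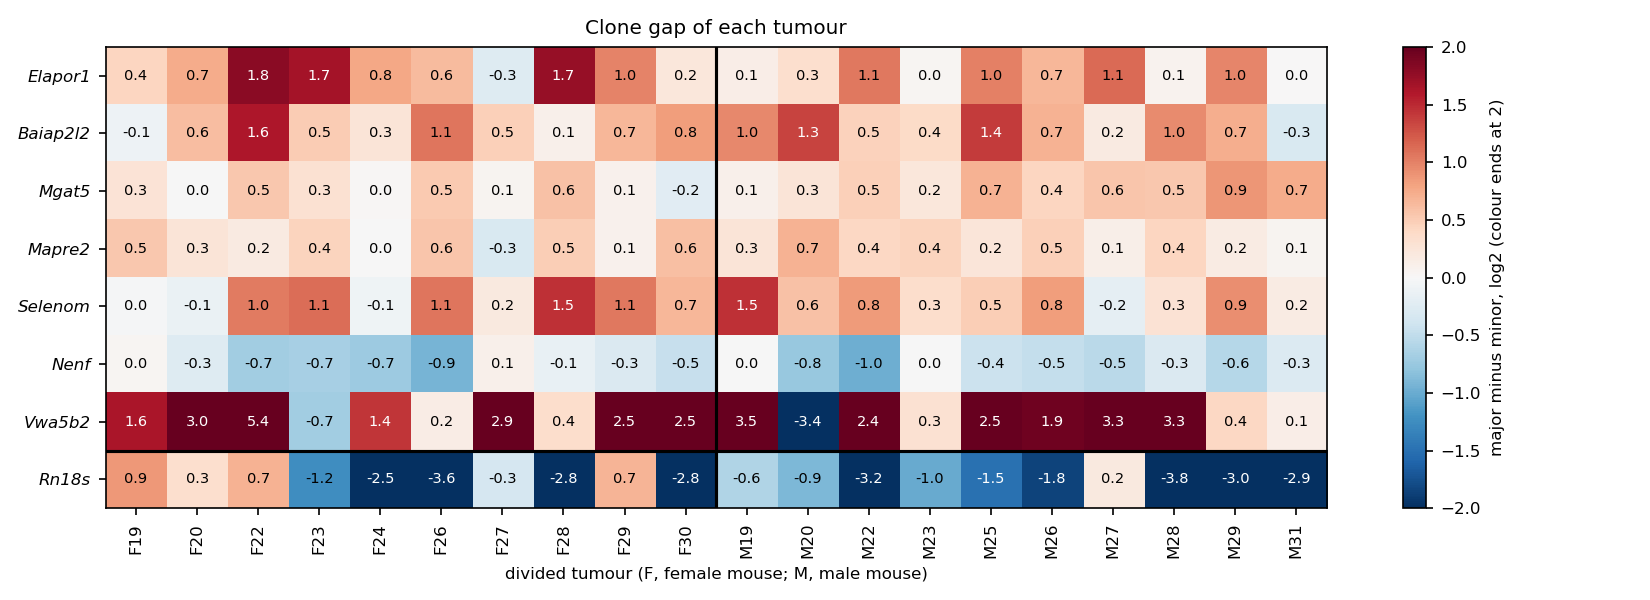
Clone gap (major minus minor, log2 of normalised count + 1) of the 7 genes and of Rn18s in each of 20 divided tumours, 10 of the female (F) and 10 of the male mouse (M). Red cells are higher in the major clone and blue cells in the minor clone, and printed values are rounded to 1 decimal. Nenf is blue or near 0 in each tumour other than F27 (0.11), and the Rn18s row is below 0 in 15 tumours.

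Correlations between the gaps of the 7 genes over the 20 tumours are given as a description because the points share the libraries and the scaling. The strongest were Elapor1 with Nenf (Pearson's r = -0.461), Mapre2 with Vwa5b2 (-0.431) and Elapor1 with Selenom (0.410). Between Elapor1 and Baiap2l2 r was 0.139, and between Mgat5 and Mapre2 0.00131. Against the secretory genes, the gap of Vwa5b2 had r = 0.597 with that of Chga and the gap of Baiap2l2 had r = 0.561 with that of Atoh1 and 0.467 with that of Chga. The gap of Mgat5 had r = 0.435 with that of Muc2. These were the largest in size against the secretory genes, and Vwa5b2 was measured at few counts. With the gap of Atoh1, r was 0.212 for Elapor1, 0.237 for Mapre2, 0.248 for Selenom and -0.353 for Nenf. With the gap of Muc2 it was -0.0290 for Elapor1, -0.0171 for Mapre2 and 0.0887 for Selenom.

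Relatives of the 7 genes, chosen by family and pathway, mostly did not pass between clones. Of 25 relatives tested between clones, 1 passed the threshold, and their median gap was 0.04 beside 0.01 for all genes. It was Mgat4a, which adds the β1,4 branch to the same N-glycan core on which Mgat5 acts, and it was higher in major clones by 0.34 (SE 0.07, limma adjusted p = 0.0266). Its neighbours in the pathway, Mgat1 (-0.01, SE 0.07), Mgat2 (0.00, SE 0.05) and Mgat4b (0.08, SE 0.05), did not pass, nor did Mgat3, the bisecting enzyme (0.38, SE 0.10, limma adjusted p = 0.0613). Mapre1, which encodes EB1, had a gap of 0.04 (SE 0.05). Other selenoproteins of the endoplasmic reticulum ran from -0.27 (Selenon) to 0.03 (Selenos). The relatives of Nenf with a cytochrome b5-like domain, Pgrmc1 (0.21, SE 0.10) and Pgrmc2 (0.17, SE 0.06, limma adjusted p = 0.0973), had gaps of the opposite sign to that of Nenf.

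Some secretory genes were also higher in major clones. Of 13 secretory transcription factors tested, 3 passed and were higher in major clones, Atoh1 (0.69, SE 0.13, limma adjusted p = 0.0207), Creb3l1 (0.43) and Neurog3 (0.92). Of 14 goblet products, 5 passed and were higher (Clca1, Spink4, Reg4, Klk1 and Tpsg1, by 0.63 to 0.74), and of 14 enteroendocrine products 2, Chgb (0.89) and Tph1 (0.72). Over all genes tested, 1.14% passed. The median gap of these lists was 0.30, 0.60 and 0.58. It was 0.68 for stromal, 0.46 for immune, 0.45 for Paneth, 0.40 for enterocyte, 0.25 for endothelial, 0.13 for epithelial and -0.01 for tuft genes. Among 8 enterocyte markers Sis passed (1.10), and 0 of 8 Paneth, 5 tuft, 7 epithelial, 8 stromal, 5 endothelial and 8 immune genes did. The smallest p of the last 3 lists were those of Lum (1.03, adjusted p = 0.0621, limma), Egfl7 (-0.43, adjusted p = 0.0935) and Ptprc (0.49, adjusted p = 0.0703). The summed goblet list was higher in the major clone in 15 of 20 tumours (mean gap 0.44, SD 0.62), the stromal list in 12 (0.47, SD 1.12) and the immune list in 14 (0.49, SD 0.87). Their part in the gaps of the 7 genes was not tested.

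Undivided tumours do not enter the clone differences that chose the genes. The genes, lists and tests were still chosen with earlier results of these data known. Baiap2l2 ranged from 120.1 to 1110 (median 585), Mgat5 from 1183 to 4524 (median 1877) and Mapre2 from 609 to 2313 (median 1243). Selenom ranged from 75.9 to 758 (median 376), Nenf from 363 to 1105 (median 689) and Vwa5b2 from 0 to 25.9 (median 7.10), with F8 at 0. Each range overlapped those of both clone groups. Their means lay between those of the clone groups for 6 of the genes, and that of Mapre2 lay at the level of the minor clones. Against the major clones the undivided mean differed by -0.53 for Elapor1, -0.38 for Baiap2l2, -0.14 for Mgat5, -0.31 for Mapre2, -0.55 for Selenom, 0.16 for Nenf and -0.84 for Vwa5b2. Against the minor clones it differed by 0.18, 0.27, 0.21, 0.00, 0.06, -0.26 and 0.84 in the same order. These are values with no test. The SD over undivided tumours was 0.77 for Elapor1, 0.76 for Baiap2l2, 0.47 for Mgat5, 0.50 for Mapre2, 0.87 for Selenom, 0.37 for Nenf and 1.25 for Vwa5b2. Each of these differences was smaller than that SD. The SD is the spread of single tumours and not the error of a mean, so it does not show whether the means differ.

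The test compared undivided tumours with the mean of each clone pair, a measure that the clone gap does not enter. It held no term for segment. Pair means included 2 SI30 tumours and F22 with its mixed labels, while no undivided tumour was from SI30. With segment as a further covariate, in SI10 and SI20 tumours alone, 6 genes were called. The test without segment called 20 of 16507 genes (0.121%, limma with mouse as a covariate) and 0 of the 7. Of the 20, 5 were higher and 15 lower in undivided tumours, and with library sums made equal 4 were higher and 31 lower. The differences ran from -0.23 for Selenom (SE 0.21) to 0.04 for Mgat5 (SE 0.13), and the smallest adjusted p was 0.560, for Mapre2 (-0.16, SE 0.12). The median was -0.08 over the 7 genes and -0.01 over all genes tested. Unadjusted, 2429 genes had a p under 0.05 and none of the 7 did. Undivided tumours spread more widely than pair means for each of the 7 genes, and a pair mean averages both clones. They also spread more widely than single clones, except for Nenf and Vwa5b2. For Nenf the SD was 0.37 in undivided tumours and in major clones, and for Vwa5b2 it was 1.25 against 1.31 in minor clones. For Selenom it was 0.87 in undivided tumours, 0.52 in major clones, 0.54 in minor clones and 0.47 over pair means. The reason was not tested. In the female mouse, undivided tumours were lower than pair means by 0.64 for Elapor1, 0.54 for Baiap2l2 and 0.67 for Selenom, and in the male mouse they were higher by 0.27, 0.34 and 0.15. The difference between the mice missed the threshold after adjustment over the 7 genes (permutation test, two-sided, adjusted p = 0.0775, 0.0640 and 0.107), with unadjusted p = 0.0221, 0.00915 and 0.0460.

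Among undivided tumours, the ends of the ranges were often held by the same tumours. M4, F1 and F6 had the lowest normalised counts of Selenom (75.9, 96.0 and 112) and of Elapor1 (149, 305 and 253). F1 and M4 also had the lowest Baiap2l2 (120.1 and 212). All 3 stood below the lowest minor clone for Selenom. Their Atoh1 counts were 99.3 in M4, 46.4 in F1 and 64.9 in F6, beside a median of 152 over undivided tumours, and their summed epithelial list was 344301, 247224 and 304209, beside a median of 323017. At the other end, M7 had the highest Elapor1 (1937) and Mapre2 (2313) and the third lowest Nenf (479), with 2996 for Spdef and 176683 for Rn18s, the lowest Rn18s of the undivided tumours.

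In the undivided tumours, Elapor1, Selenom and Mapre2 followed Atoh1, Spdef and Muc2, and none of the 7 genes passed with Lyz1. Levels were centred on the mean of each mouse, and 63 relations were tested by permutation within mice (two-sided, n = 23 tumours, 100000 resamples, p adjusted over the 63), 42 with partner genes and 21 between members. Segment was neither centred nor held fixed, so SI10 and SI20 tumours were pooled. The part of segment in these relations was not tested. Of the 63 relations 21 passed, 18 positive and 3 negative. Each of the 21 had the same sign in both mice, as had 47 of all 63. This sign is no separate support, since the same tumours gave the r that passed. Many genes varied with the same partners. With Atoh1, 5 of the 7 genes passed, at an r of at least 0.533 in size, which 8.56% of 16510 genes reached, and with Muc2 4 passed, at an r of at least 0.539, which 6.44% reached. With Spdef 4 passed, at an r of at least 0.497, which 23.1% of all genes reached. These limits were set by the weakest of the 7 genes that passed, so the shares are a description. Elapor1 followed Atoh1 with Pearson's r = 0.748 (adjusted p = 0.000420, permutation) and Spearman's rho = 0.869 (adjusted p = 0.000630, permutation). Within the mice r was 0.881 (female) and 0.753 (male), and without the 2 tumours farthest from the median of Atoh1 it was 0.776. Selenom followed Atoh1 with r = 0.791 and rho = 0.694 (adjusted permutation p = 0.000420 and 0.00654), with 0.827 and 0.742 within the mice and 0.755 without the 2 farthest tumours. With Spdef and Muc2, r was 0.577 and 0.649 for Elapor1 (adjusted permutation p = 0.0273 and 0.00315) and 0.497 and 0.547 for Selenom (adjusted permutation p = 0.0197 and 0.0282). Elapor1 with Spdef no longer passed without the 2 farthest tumours (r = 0.358), and Selenom with Muc2 did not pass by rank (rho = 0.439, adjusted permutation p = 0.114). For Atoh1 the unadjusted p was 1e-05, the smallest these resamples can give, for Elapor1 and 2.00e-05 for Selenom.

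Mapre2 followed Spdef (r = 0.762, rho = 0.737, adjusted permutation p = 0.00113 and 0.00252), Muc2 (r = 0.746, rho = 0.555, adjusted permutation p = 0.00113 and 0.0286) and Atoh1 (r = 0.683, rho = 0.665, adjusted permutation p = 0.00157 and 0.00654). Without the 2 farthest tumours these r were 0.640, 0.627 and 0.578. Baiap2l2 had r = 0.606 with Atoh1, 0.539 with Muc2 and 0.578 with Chga (adjusted permutation p = 0.0124, 0.0304 and 0.0123). These relations of Baiap2l2 rested in part on tumours at the ends: without the 2 farthest r fell to 0.356, 0.510 and 0.419, and by rank (rho 0.387, 0.438 and 0.410) none passed. Baiap2l2 was the only gene of the 7 that passed with Chga by Pearson's r, and no gene passed with Lyz1. An r of at least 0.578 in size with Chga was reached by 8.66% of 16510 genes.

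Nenf ran against the secretory factors and with Rn18s. Its r was -0.683 with Spdef (rho -0.663, adjusted permutation p = 0.00573 and 0.00926), -0.533 with Atoh1 (rho -0.565, adjusted permutation p = 0.0124 and 0.0229) and 0.719 with Rn18s (rho 0.742, adjusted permutation p = 0.00157 and 0.00252). With Rn18s r was 0.408 in the female and 0.820 in the male mouse, and 3.25% of 16510 genes reached an r of at least 0.719 in size. Without the 2 farthest tumours r was -0.633 with Spdef and 0.611 with Rn18s, and with Atoh1 it was -0.463, which no longer passed. When the Rn18s level was removed from both genes by a linear fit, the relation of Nenf with Spdef went to -0.303 (adjusted permutation p = 0.298) and that with Atoh1 to -0.433 (adjusted permutation p = 0.122). Under the same fit, Elapor1 and Selenom no longer passed with Spdef (r = 0.435 for each), Selenom with Muc2 (0.514) and Mapre2 with Nenf (-0.452), and 14 of the 20 relations that did not involve Rn18s itself passed. With Chga, Nenf passed by rank (rho 0.590, adjusted permutation p = 0.0229) and missed by Pearson's r (0.476, adjusted permutation p = 0.0761).

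**Figure D3:**
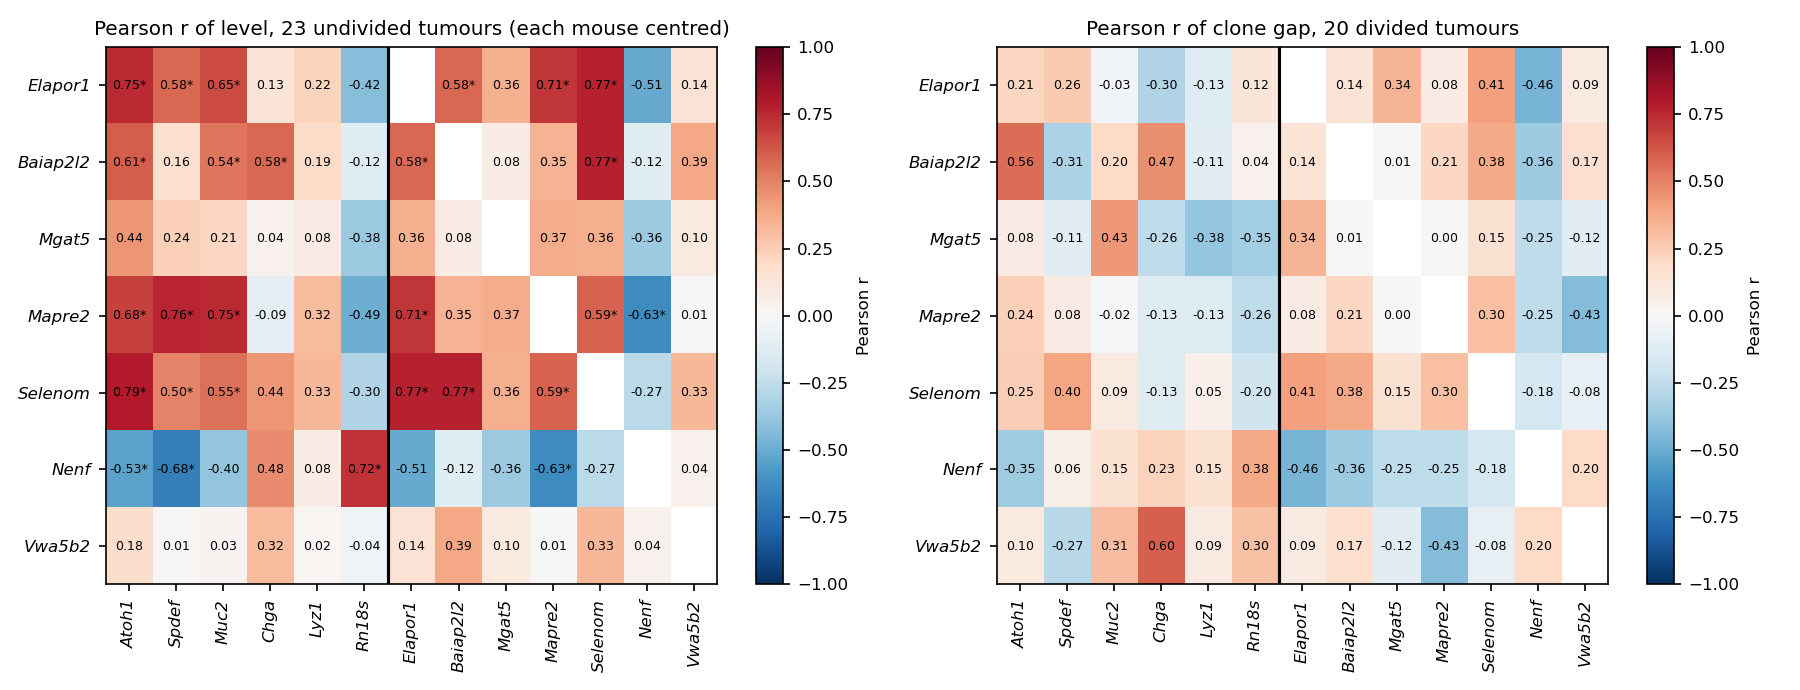
Pearson's r of the 7 genes (rows) with secretory genes, Rn18s and one another (columns). The left panel uses levels in 23 undivided tumours, centred within each mouse, with an asterisk where the adjusted permutation p was under 0.05, and the right panel uses the clone gaps of 20 divided tumours, with no test. Red is positive and blue negative; Atoh1 has asterisks with 5 of the 7 genes on the left, while on the right the r of Atoh1 with the 7 genes runs from -0.353 to 0.561.

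Between themselves, Elapor1, Selenom, Mapre2 and Baiap2l2 held 5 of the 6 relations that passed in undivided tumours, and Nenf with Mapre2 was the other. For relations between members, the share over all genes was not computed. Elapor1 had r = 0.768 with Selenom, 0.712 with Mapre2 and 0.576 with Baiap2l2 (adjusted permutation p = 0.000420, 0.00217 and 0.0187). Selenom had r = 0.771 with Baiap2l2 and 0.593 with Mapre2 (adjusted permutation p = 0.00157 and 0.0114). Without the 2 farthest tumours, Elapor1 with Baiap2l2 went to 0.377 and Baiap2l2 with Selenom to 0.461, neither of which passed. Nenf had r = -0.627 with Mapre2 (rho -0.580, adjusted permutation p = 0.0114 and 0.0253), and without the 2 farthest tumours -0.543, which no longer passed (adjusted permutation p = 0.107). Mgat5 and Vwa5b2 passed with none of their partners by Pearson's r. The largest r of Mgat5 was 0.439 with Atoh1 (adjusted permutation p = 0.120), and that of Vwa5b2 was 0.387 with Baiap2l2 (rho 0.550, adjusted permutation p = 0.168 and 0.0286).

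The genes whose levels ran most closely with each of the 7 over the 23 undivided tumours, among 13087 genes with a mean of at least 50, are given as a description. For Elapor1 they were Pros1, Cd177 and Fkbp11 (r = 0.841, 0.835 and 0.830), and for Baiap2l2 Abat, Ddit3 and Nr5a2 (0.885, 0.857 and 0.857). For Mgat5 they were Rock2, N4bp2l1 and Elmo1 (0.821, 0.775 and 0.764). Mapre2 ran with Kcnn4, the goblet product Spink4 and Adamts15 (0.902, 0.889 and 0.879), and Selenom with Myrfl, Tpsg1 and Prps1 (0.840, 0.836 and 0.831). For Nenf they were Pth1r, Zfp97 and Hint2 (0.884, 0.874 and 0.871), and for Vwa5b2, whose counts were low, Gm12174, Sgsh and Otulinl (0.633, 0.614 and 0.594). Likeness in undivided tumours did not carry a matching clone gap in each case: Fkbp11 had a mean gap of 0.03 and was higher in the major clone in 10 of 20 tumours, and Ddit3 -0.04 and 9 of 20.

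By segment, Nenf was higher and Elapor1, Baiap2l2 and Mapre2 lower in SI10 than in SI20 tumours, in both sets of samples, but 1 of these differences passed the threshold. In undivided tumours 28 of 16511 genes were called between segments (0.170%, limma with mouse as a covariate) and 0 of the 6 members tested, Vwa5b2 having a mean under 10. Nenf was 9.60 ± 0.26 (log2 level, SD, n = 12) in SI10 and 9.19 ± 0.36 (n = 11) in SI20, a difference of 0.41 (SE 0.13, unadjusted p = 0.00524, adjusted p = 0.418, limma). Mapre2 differed by -0.43 (SE 0.18, adjusted p = 0.601), Elapor1 by -0.55 (SE 0.29, adjusted p = 0.679) and Baiap2l2 by -0.38 (SE 0.26, adjusted p = 0.745). In the female mouse Elapor1 differed by 0.03 and in the male mouse by -0.99. The difference between the mice missed the threshold (permutation test, p = 0.0994, adjusted over 7 genes 0.348). Unadjusted, 1258 genes had a p under 0.05, with Nenf and Mapre2 among them.

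In clone pair means, 46 of 16436 genes were called between 7 SI10 and 10 SI20 tumours (0.280%, limma with mouse as a covariate), with Baiap2l2 the 1 of the 7. Vwa5b2 passed the filter in this comparison, too, only through its level in major clones. Baiap2l2 was 8.83 ± 0.36 (log2 level, SD, n = 7) in SI10 and 9.49 ± 0.21 (n = 10) in SI20, lower by 0.67 in SI10 (SE 0.13, adjusted p = 0.0286, limma). The ranges overlapped between 9.15 and 9.48, and the difference was -0.64 in the female and -0.69 in the male mouse, neither of which passed alone (adjusted p = 0.857 and 0.193, limma). The call was lost in 7 of 17 fits that left out 1 tumour, with adjusted p from 0.00334 without F23 to 0.0833 without F19. Nenf was higher in SI10 by 0.31 (SE 0.12, adjusted p = 0.278), and Elapor1 and Mapre2 lower by 0.44 and 0.27 (adjusted p = 0.308 and 0.312). Of the goblet products, Reg4 passed in the same comparison, lower in SI10 by 1.23 (adjusted p = 0.0492).

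**Figure D4:**
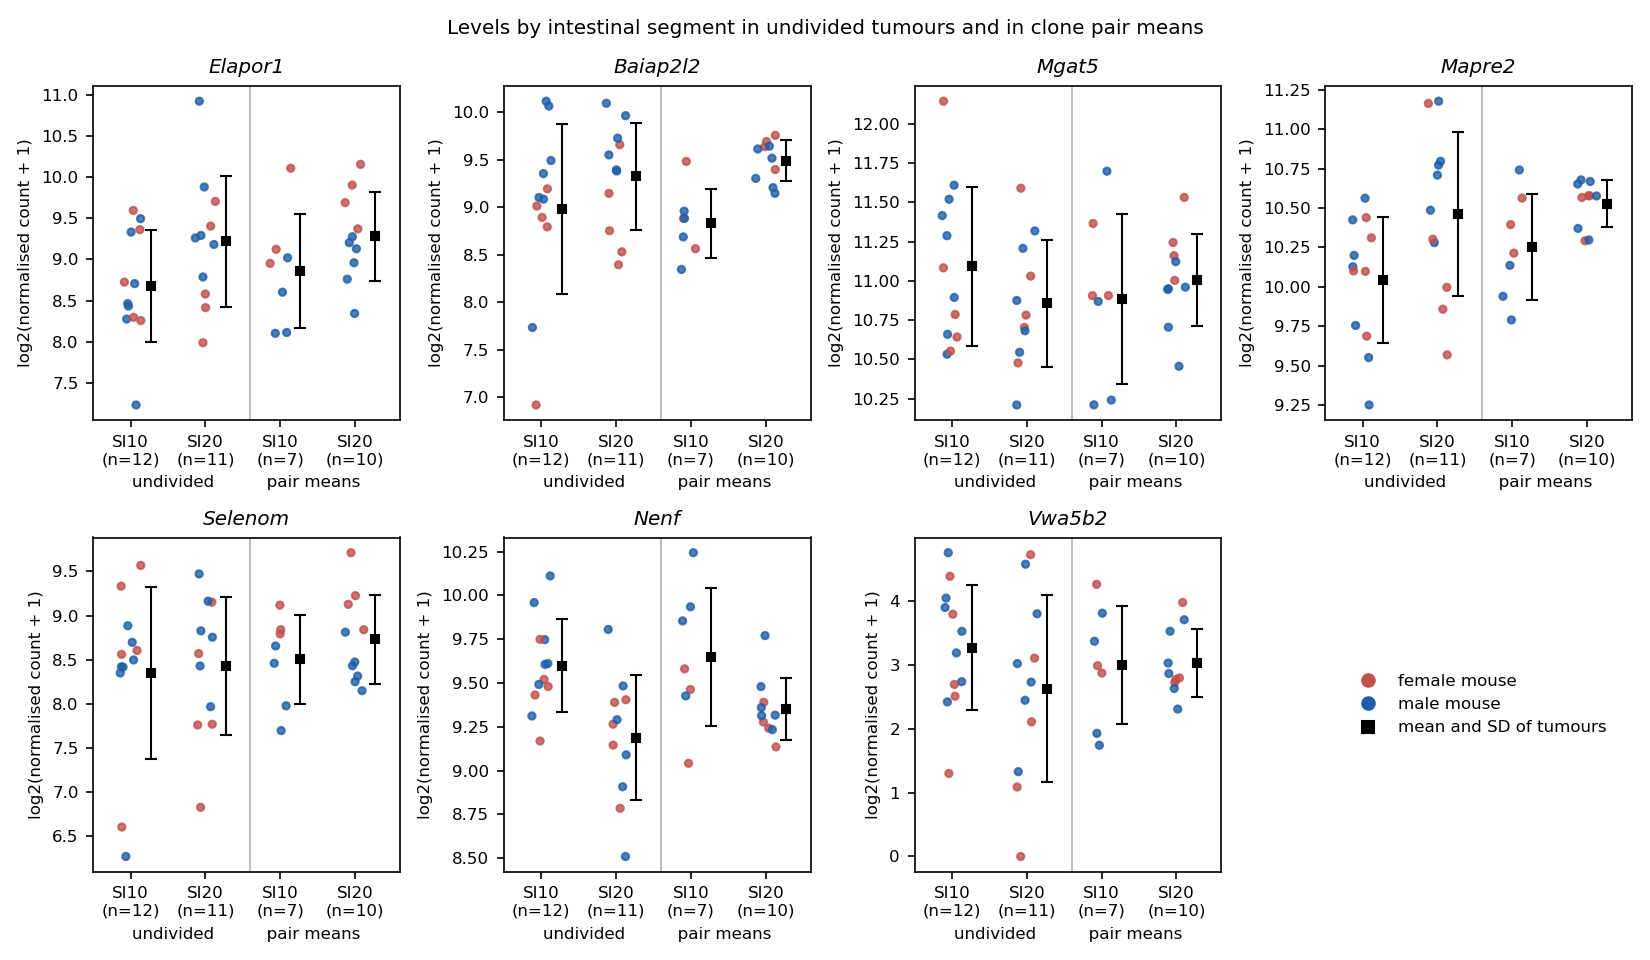
Levels of the 7 genes (log2 of normalised count + 1, vertical axes) in SI10 and SI20, for 12 and 11 undivided tumours and for the means of 7 and 10 clone pairs. Points are tumours coloured by mouse, and black squares with bars give the mean and SD. Baiap2l2 pair means lie between 8.35 and 9.48 in SI10 and between 9.15 and 9.76 in SI20.

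Between the mice, 3154 of 16511 genes were called in undivided tumours (19.1%, limma with segment as a covariate), and 1 of the 6 members tested was among them, a share near this background. Of the 3154, 1697 were higher and 1457 lower in the male mouse, and with library sums made equal 965 were higher and 3392 lower. Baiap2l2 was 9.47 ± 0.63 (log2 level, SD, n = 13) in the male and 8.73 ± 0.73 (n = 10) in the female mouse, higher by 0.75 (SE 0.26, adjusted p = 0.0479, limma). The call was kept in 4 of 23 fits without 1 tumour, with adjusted p from 0.00865 without M4 to 0.103 without F1, the tumour with the lowest count, and with library sums made equal the difference was 0.55 (adjusted p = 0.115, limma). The other 5 ran from -0.01 for Mgat5 to 0.21 for Elapor1 (adjusted p of at least 0.535). Of 25 relatives, 6 passed in this comparison (limma), a share also near the 19.1% of all genes. In the male mouse 5 were higher, among them Pgrmc1 (0.80, adjusted p = 0.00158), Mapre3 (0.96, adjusted p = 0.0189) and Mgat3 (0.70, adjusted p = 0.00471), and Mgat4c was lower (-1.80, adjusted p = 0.0392).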

How the data were processed

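RNA sequencing of 63 tumour libraries was analysed from 1 table of gene signals. As deposited by the authors, the signal is a normalised count: reads were trimmed (Trimmomatic 0.39), quantified by Salmon 1.9.0 against Gencode M30 (GRCm39) and scaled between libraries, with DESeq2 as their tool. The signals are not whole numbers, so no count test was used, and whether quantification used strand is not given in the sources used here. The estimated depth was 13100000 to 52000000 reads a library (median 32700000), and errors are the spread over tumours.

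The 7 members, the gene lists and the tests were chosen with earlier results of these data known. Values were taken as log2(value + 1), genes with a mean of at least 10 were fitted with limma 3.58.1 (eBayes with trend, R 4.3.3), and p-values were adjusted by Benjamini-Hochberg over all genes tested, with a threshold of 0.05. Tumour was the block for clones, since clones of a pair come from 1 tumour. After removal of class means, the clones of a pair correlated at a median of 0.265 (over 0.1 in 17 of 20). The genes named are the 7 members, list genes that passed or had the smallest p, and the 3 genes most like each member. Correlations used 100000 permutations within mice. To gauge sensitivity, labels of these libraries were shuffled and 200 genes with a mean of at least 50 were shifted by a log2 of 1. Of the shifted genes, 94.5% were called between clones, 87.0% between undivided tumours and pair means and 73.0% between segments. Vwa5b2 lay below that mean, and the mean clone gaps of the other members were smaller than the shift, so these shares do not describe the members. Promoters are the 250 bases before the start of the canonical transcript, read from GRCm39; those of Nenf and Mapre2 are not reported here. Alternatives changed the pseudocount, filter, scaling, block, mouse and tumours used.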

Additional observations from a re-analysis of the deposited data

Results flagged for a closer look

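In 70 sets of 4 to 10 tumours (7 genes in 10 groupings by mouse, segment or clone gap), 3 values stood far from the others by Dixon's test, and chance flags about 1 in 20. Baiap2l2 was 6.92 (log2 level) in F1, the lowest of 5 undivided SI10 tumours of the female mouse, whose other values ran from 8.79 to 9.19. Selenom was 6.27 (log2 level) in M4, the lowest of 7 undivided SI10 tumours of the male mouse, whose other values ran from 8.35 to 8.88. The clone gap of Vwa5b2 was -3.44 in M20, while the other 9 tumours of the male mouse ran from 0.14 to 3.48.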

How the results depend on the processing

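All 63 clone gaps of the 7 genes recomputed under 9 settings kept their sign and moved by less than 1 SD, which is no sign of stability, since these gaps chose the genes. The count of genes called between clones, 188, became 346 (133 higher in major clones, where 110 of the 188 were) under quantile normalization, 292 (193 higher) with library sums made equal, 85 with no filter on low values and 0 without the replicate block, that is, without pairing clones by tumour. Equal sums moved the median of all genes by -0.11 for segments of undivided tumours and by -0.20 between mice. Undivided tumours against pair means, 20 calls, gave 55 (quantile), 35 (equal sums), 6 with mouse and segment as covariates, 0 in either mouse alone, and 7 (without M31) to 71 (without M7) when 1 tumour was left out. Segments of undivided tumours, 28 calls, gave 18 at a pseudocount of 0.1, 0 in the female and 46 in the male mouse, and 5 (without M8) to 53 (without F6) without 1 tumour. Segments of pair means, 46 calls, gave, in fits chosen after seeing the data, 0 in the female and 6 in the male mouse and 13 (without F19) to 215 (without F23). The mice, 3154 calls, gave 2307 to 3654 without 1 tumour. None of the members' differences that changed sign passed the threshold. Against pair means these were Vwa5b2 (0.00 at a pseudocount of 0.1, 0.07 under quantile normalization, 0.38 in the male mouse, -0.11 to 0.12 without 1 tumour), Mgat5 (-0.05 at equal sums, -0.09 in the female mouse, -0.01 to 0.09), Nenf (0.01 in the female mouse), Elapor1 (0.27), Baiap2l2 (0.34, and -0.13 to 0.03) and Selenom (0.15) in the male mouse. Between segments they were Elapor1 (0.03) and Selenom (0.52) in the female mouse, Selenom (-0.24 to 0.11) without 1 tumour, and in pair means Vwa5b2 (0.31 in the female mouse, -0.24 to 0.15). Between mice they were Mapre2 (-0.02) and Nenf (-0.09) at equal sums and Mgat5 (-0.07 to 0.12). Of the 21 correlations that passed, 13 did so without the 2 tumours farthest from the partner's median. With the Rn18s level removed, a setting chosen after seeing the data, 14 of the 20 that do not involve Rn18s did. The causes were not tested. Depth limits Vwa5b2 most, since 18 of 20 minor clones had a normalised count under 10.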
